A study of Mus musculus with 8 samples.

Results

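Brown adipose tissue (BAT) burns fuel to make heat, and in the cold it takes up glucose from the blood as well as fatty acids. Glucose enters through the transporters Slc2a1 (GLUT1) and Slc2a4 (GLUT4), is trapped by the hexokinases Hk1 and Hk2, and is split to pyruvate by an enzyme chain that includes phosphofructokinase (Pfkl) and pyruvate kinase (Pkm). Pyruvate is then either reduced to lactate by lactate dehydrogenase (Ldha, Ldhb) or sent to the mitochondrion, and Pdk4 closes the second route by phosphorylating pyruvate dehydrogenase. Aifm2 is a NADH oxidoreductase of the AIF family that sits on lipid droplets and mitochondria of brown adipocytes, where it returns NADH to NAD and so keeps glycolysis supplied. The accessible sites listed at these 10 genes are described here from ATAC-seq, in which the Tn5 transposase cuts open chromatin, so that an accessible region appears as a peak of reads and its highest point as a summit.

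Nuclei came from BAT of mice at 12 weeks of age that had spent 4 h at 4°C. The 2 WT mice were Dot1l f/f controls, and the 2 Dot1L-BKO mice carried floxed Dot1l together with Ucp1-Cre, so that both genotypes share the floxed alleles and the cold. Ucp1-Cre deletes Dot1l, the H3K79 methyltransferase, in Ucp1+ cells, whereas the nuclei were taken from whole tissue, in which a smaller number of open cells and a smaller opening per cell cannot be told apart. The libraries of the mice were made separately, but the deposited list is 1 set of summits for WT against Dot1L-BKO libraries, with no value per library and no statement of which libraries were treatment and which control. For this reason depth is unknown, no replicate error can be given, and accessibility in WT and Dot1L-BKO BAT was not compared. The score used here is −log10 of a summit's MACS2 q-value: it ranks how clearly a peak stood out from what MACS2 compared it with, and it is not a level of accessibility of one gene in one mouse. If libraries of one genotype served as the control, a score would measure a contrast between genotypes and not how open a site was, and from the list these cannot be told apart.

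A gene was given every summit inside its body, and every summit no more than 50 kb from one of its start sites (the start of a curated RefSeq mRNA, mm10). By this rule 90 of the 32173 summits in the list fell at the 10 genes. For 54 of them the nearest start site was that of the gene itself, and the other 36 lay nearer another gene. The summits just inside the window edge were 1 at -49672 bp from Hk2 with a score of 4.16 and 1 at -49347 bp from Ldha with 4.56, and just outside lay 1 at -50035 bp from Ldha with 12.2 and 1 at -50265 bp from Slc2a4 with 7.05. Of the 54, 14 lay within 1 kb of a start site (promoter summits). The other 40 were distal: 25 lay in introns, 6 in exons and 9 between genes, and 15 were within 5 kb of a start site. The tissue label was checked on genes of its cell types, against a share of 45.2% of all genes with a promoter summit. GC content was not matched in this check. If libraries of 1 genotype served as the control, it would reflect a contrast between genotypes and could not check the tissue. Promoter summits were found at 9 of 10 genes listed for brown adipocytes, with scores from 6.02 to 61.5 and Ucp1 at 33.7, and the exception was Adrb3. Of the listed genes, Adipoq and Pparg are general adipocyte genes, which the paper treats as adipogenic markers. Promoter summits were also found at 1 of 8 skeletal muscle genes, 1 of 5 endothelial genes and 2 of 5 macrophage and leukocyte genes. The count was 1 of 4 for hepatocyte genes and 0 of 4 for neuronal genes. The endothelial and macrophage summits scored at most 3.32. The muscle gene was Mylpf, whose score of 43.7 was above every gene listed for brown adipocytes except Cidea (61.5). The macrophage share was near that of all genes. The hepatocyte gene was Apoa2 with 8.94, above the listed adipocyte genes Dio2 and Adipoq at 6.02 each and Prdm16 at 8.65.

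All 10 genes had a promoter summit. Over all 21000 genes with a curated mRNA the share was 45.2%. With a promoter window of 500 bp the 10 became 9, without Slc2a4. The strongest promoter summit of a gene reached a score of 10 at 9 of the 10, the exception being Ldha, against 23.5% of all genes. Of the 15 start sites of the 10 genes, 14 had a summit within 1 kb, against 43.4% of the 25999 start sites of all genes. A summit in the gene body more than 1 kb from the start sites was present at 8 of the 10, against 25.6% of all genes, and the genes without one were Pfkl and Ldhb. Body length was not matched. The comparison with all genes in these counts includes genes of low GC content, which rarely had a summit. Taking for every gene its start site richest in G and C, the promoters of the 10 genes (250 bp before to 50 bp after the start) held 57.3% to 67.3% G and C. Among all genes at or above the lower of these values, 65.6% had a promoter summit. The second start sites of Aifm2, Hk1 and Ldha fell below this range, at 56.0%, 51.3% and 56.7%. In order of strongest promoter score, the genes were Pdk4 (64.5), Slc2a4 (46.4), Pkm (41.0), Hk2 (31.7), Aifm2 (30.1), Pfkl (20.9), Ldhb (18.8), Hk1 (17.7), Slc2a1 (11.2) and Ldha (6.02). Their median of 25.5 stood against 10.7 over the 9485 genes with a promoter summit, whose quartiles were 5.56 and 20.9. With no spread over mice, neighbours in this order cannot be said to differ.

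**Figure D1:**
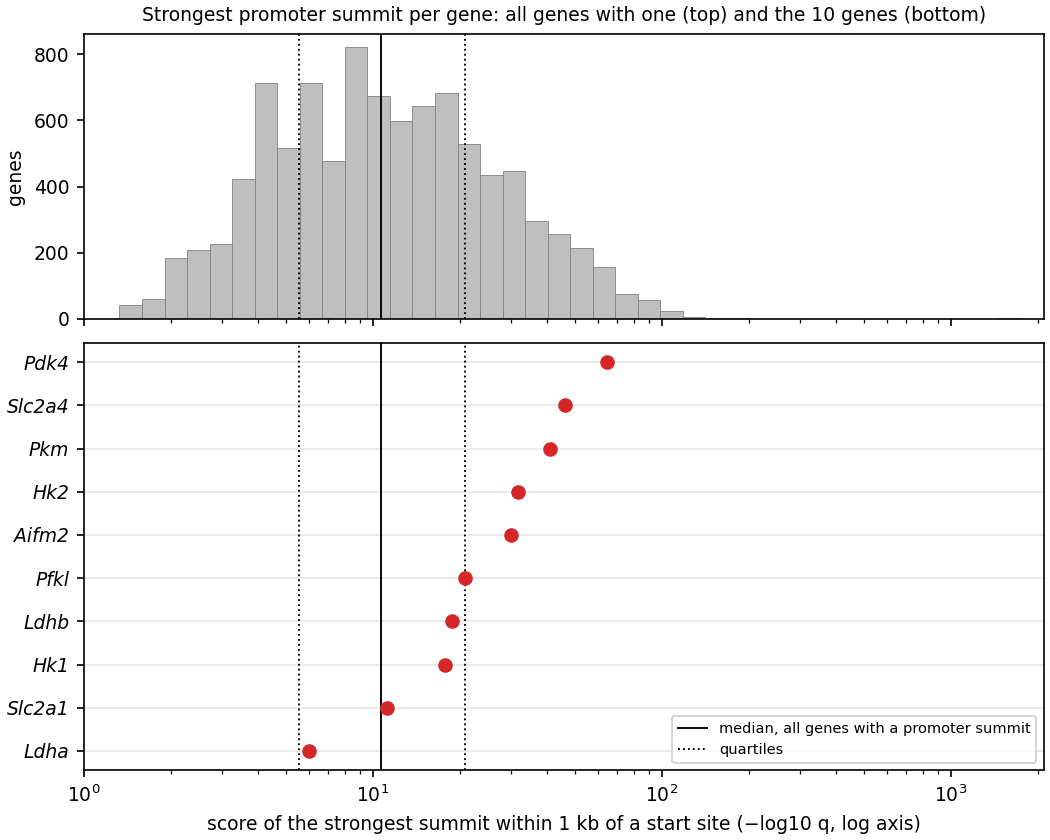
Score of the strongest promoter summit (−log10 q, log axis): the top panel is the number of genes per score bin over the 9485 genes with a promoter summit, and the bottom panel gives each of the 10 genes as a point. 9 of the 10 points lie above the all-gene median of 10.7 and Ldha lies below it.

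**Figure D2:**
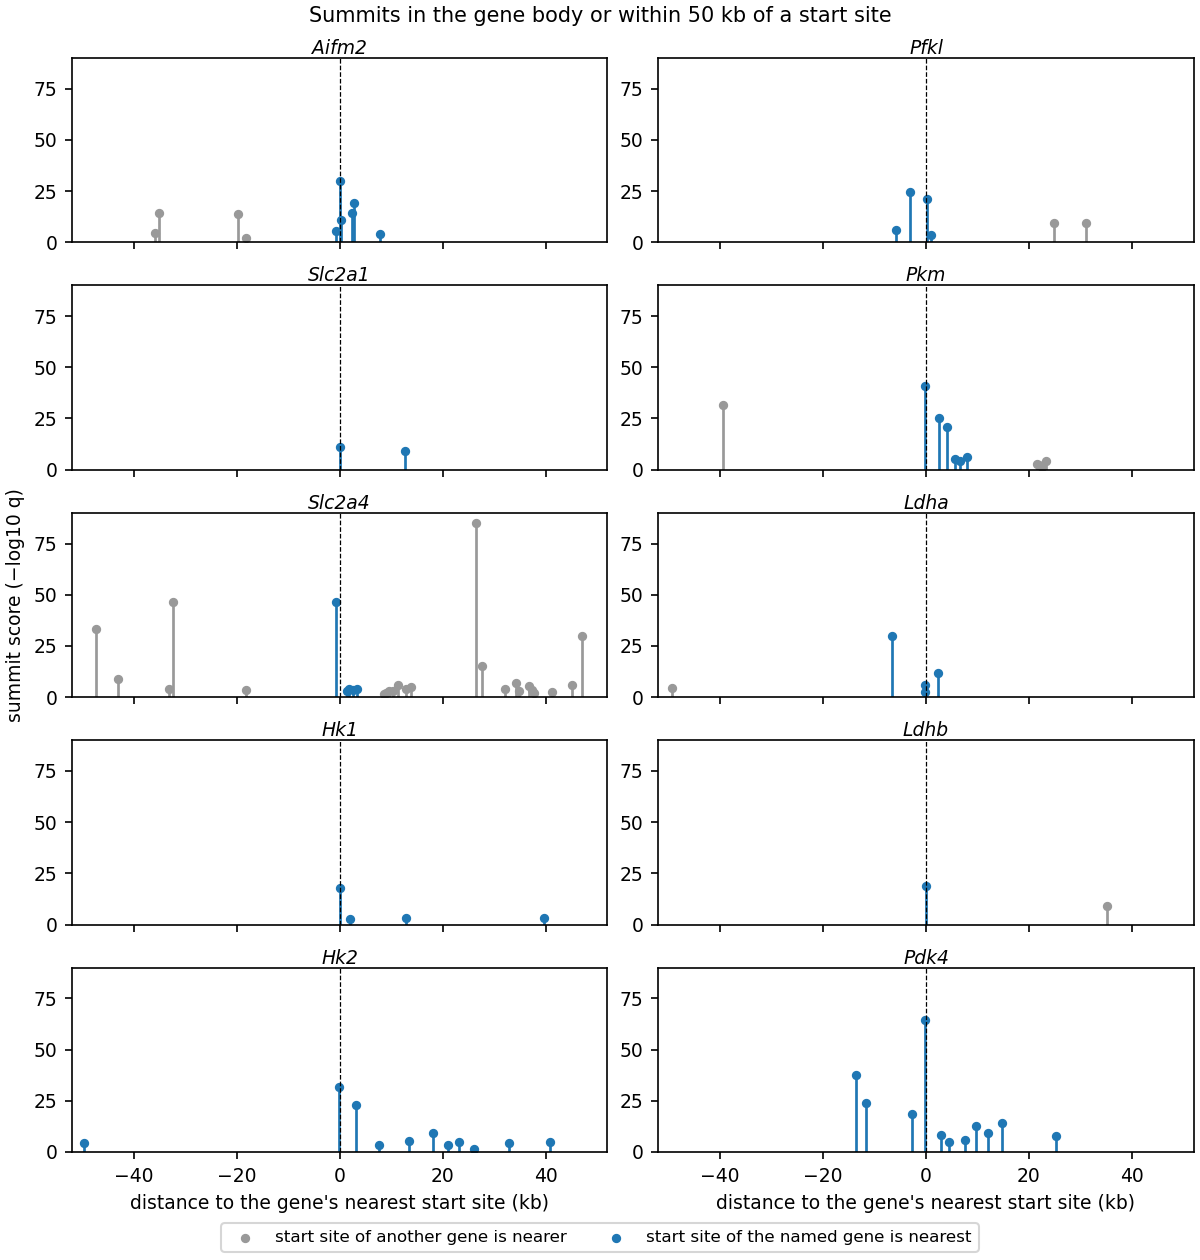
Summits at the 10 genes (the 50 kb rule), by distance from the nearest start site of that gene (kb, x axis) and score (−log10 q, y axis). Summits whose nearest start site is that of the gene are drawn apart from those nearer another gene, and the Slc2a4 locus holds the most of the latter.

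Aifm2 lies on the plus strand at chr10:61715263-61739260, a body of 24.0 kb, and had 10 summits, 6 of them its own. RefSeq gives it start sites at 61715263 and 61720649, 5386 bp apart. The downstream start site carried the strongest summit, 46 bp into exon 1 of its transcript. It scored 30.1, rank 1311 of 9485 genes (ties take the best rank). The upstream start site had summits at -795 bp (5.56) and at +163 bp (10.9) in intron 1. The 2 promoters differ in sequence: the upstream one held 63.7% G and C with 16 CpG dinucleotides in the same window, and the downstream one 56.0% with 4. Thus the stronger Aifm2 summit was at the promoter poorer in CpG. Between the start sites, a summit at +2452 bp scored 14.0, and beyond the downstream one, intron 1 of its transcript held another at +2711 bp with 19.02. The last, at +7808 bp in intron 5, scored 4.20. Its sequence is not printed, though it held 3 of the short patterns spelled out below: the hypoxia response core, EBF and AP-1. Of 932 genes with a promoter summit and start sites more than 2 kb apart, 82.0% had a start site without a summit, whereas both Aifm2 start sites had one. Those genes could have more than 2 start sites, and any without a summit counted, so the share is not matched to Aifm2. The neighbours Sar1a and Tysnd1 account for the remaining 4 summits, of which the strongest scored 14.0 and 13.8. 3 stretches of Aifm2 are shown because they carry short patterns known from promoters and enhancers (plus strand, GRCm38/mm10): the 100 bases before the upstream start at chr10:61715163-61715262, and the 101 bases around the intronic summits at chr10:61717665-61717765 and chr10:61723310-61723410. Capitals mark the estrogen-related receptor pattern (TCAAGGTCA, which contains the nuclear receptor element AGGTCA) and GC boxes (GGGCGG) in the first, and the hypoxia response core (ACGTG, or CACGT on the other strand) in the others.
Aifm2 before the upstream start: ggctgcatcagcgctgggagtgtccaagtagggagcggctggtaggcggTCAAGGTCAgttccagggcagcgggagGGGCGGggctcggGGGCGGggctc
Aifm2 intron 1, +2452: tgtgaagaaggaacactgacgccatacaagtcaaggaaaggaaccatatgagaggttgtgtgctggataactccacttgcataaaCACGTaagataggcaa
Aifm2 intron 1, +2711: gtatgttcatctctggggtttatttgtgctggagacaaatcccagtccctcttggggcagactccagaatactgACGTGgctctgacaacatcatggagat
TCAAGGTCA was found in the 100 bases before 19 of 25999 start sites (0.0731%), both strands counted, and GGGCGG before 34.3%. This pattern was picked out after its match was seen. No summit of the 10 genes held TCAAGGTCA within 100 bp, against 0.454% of all summits. ACGTG lay within 50 bp of 7.39% of all summits.

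The glucose transporters differed in number and strength of summits. Slc2a1, the widely expressed transporter (chr4:119108745-119137330, plus strand), had 2 summits, at +148 bp in exon 1 (11.2) and at +12674 bp in intron 2 (9.21). Slc2a4, the insulin-responsive transporter of fat and muscle (chr11:69942286-69948216, minus strand), had 28 summits in its window, of which 5 were its own. Its strongest lay 794 bp before one start site and 801 bp before the other, with a score of 46.4 and rank 574. Inside the 5.93 kb body were 4 more, with scores from 2.92 to 4.16. This density, 6.74 per 10 kb of body, was the highest of the 10 genes, and the values were low in the list, whose median is 5.0. Of the 23 summits nearer another gene, those of Eif5a (85.1), Elp5 (46.4) and Phf23 (33.4) were strong, so the count of 28 is mostly a count of neighbours. The upstream summit of Slc2a4 is shown since it is the only promoter summit of the gene (minus strand, chr11:69948941-69949041, mm10), with ACGTG in capitals.
Slc2a4, -794: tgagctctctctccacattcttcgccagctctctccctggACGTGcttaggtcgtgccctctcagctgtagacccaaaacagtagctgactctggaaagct

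The hexokinases catalyse the same step and had different summit patterns. Hk1, the widely expressed form (chr10:62268855-62379920, minus strand, 111.1 kb), has start sites 39487 bp apart. The downstream one, at 62340421, had a summit at +26 bp (17.7), and the one at 62379908 was the only start site of the 10 genes without a summit, its nearest lying 39513 bp away. The start site with the summit held 63.3% G and C and 20 CpG, and the other 51.3% and 1. In Hk1 the summit was thus at the promoter richer in CpG, the reverse of Aifm2. The 3 further Hk1 summits scored 2.53 to 3.32. Hk2, the inducible form of fat and muscle (chr6:82725025-82774454, minus strand, 49.4 kb), had 11 summits, all its own: 1 at -38 bp (31.7), 9 in introns and 1 at -49672 bp. Of 21000 genes, Hk2 ranked 164 by summits in the body away from the start sites, and 349 genes (1.66%) had at least 7. This rank is by count and makes no allowance for body length. Per 10 kb of body Hk2 held 1.82, and the 10 genes ran from 0 (Pfkl and Ldhb) to 6.74 (Slc2a4). The strongest intronic Hk2 summit, at +3237 bp, scored 23.1. The other 8 ran from 1.41 to 9.21, and 6 of them scored no more than 5.07. The 100 bases before the Hk2 start (minus strand, chr6:82774455-82774554) are shown because 3 patterns lie there in a row: CCAAT, the hypoxia response core on the opposite strand, and a GC box. Before all start sites, CCAAT was present in 20.3% and ACGTG in 8.81%. The intronic summit at +3237 bp (minus strand, chr6:82771167-82771267) held none of the 16 patterns within 100 bp.
Hk2 before the start: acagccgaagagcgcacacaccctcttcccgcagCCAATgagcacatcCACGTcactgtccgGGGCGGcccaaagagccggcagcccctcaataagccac
Hk2 intron, +3237: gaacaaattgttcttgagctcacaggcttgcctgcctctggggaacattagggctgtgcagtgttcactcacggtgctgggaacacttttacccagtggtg

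In the enzyme chain of glycolysis, Pfkl, the liver-type subunit of phosphofructokinase (chr10:77986947-78009807, minus strand), had its promoter summit at +181 bp in exon 1 (20.9) and a weak second at +919 bp (3.75). Upstream of the start were summits at -3179 bp with 24.6, higher than at the promoter, and at -5874 bp with 6.02. Pkm, whose splice forms make pyruvate from phosphoenolpyruvate (chr9:59656576-59679372, plus strand), had a promoter summit at -146 bp with 41.0, and then a run in intron 1: +2602 bp (25.4), +4077 bp (20.9), +5563 bp (5.07) and +6633 bp (4.16). A further summit in exon 3 at +7973 bp scored 6.35. In all, 7 summits lay in the Pkm body away from its start sites, of which 2 were nearer Gramd2. By this count, with no allowance for body length, Pkm ranked 262 of 21000. The leading intronic summits of Pkm (plus strand, chr9:59659779-59659879 and chr9:59661254-59661354) and the upstream summit of Pfkl (minus strand, chr10:78012936-78013036) are shown as the strongest distal summits of these genes, with the second of Pkm. Capitals at +2602 mark an E-box, CACGTG, which contains the hypoxia response core. Capitals at +4077 mark that core, then the CCAAT box and the nuclear receptor element, both read on the opposite strand. The E-box lay within 50 bp of 2.45% of all summits, the CCAAT box of 14.6% and the nuclear receptor element of 8.20%.
Pkm intron 1, +2602: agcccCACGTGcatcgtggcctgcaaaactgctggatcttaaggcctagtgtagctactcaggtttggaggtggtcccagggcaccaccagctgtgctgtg
Pkm intron 1, +4077: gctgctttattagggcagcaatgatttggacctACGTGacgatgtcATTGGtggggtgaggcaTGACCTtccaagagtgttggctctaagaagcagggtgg
Pfkl, -3179: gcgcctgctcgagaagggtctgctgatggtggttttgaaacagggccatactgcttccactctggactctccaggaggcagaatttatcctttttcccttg

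Ldha and Ldhb encode the M and H subunits of lactate dehydrogenase, which favour lactate and pyruvate respectively. Ldha (chr7:46842274-46855627, plus strand) was the only one of the 10 genes whose promoter summit fell below the all-gene median. Its start sites, 1278 bp apart, had summits at -260 bp (6.02) and -290 bp (2.49), while intron 3 had one at +2418 bp (11.9) and the strongest lay at -6546 bp (30.1). The latter is 2217 bp from a start that GENCODE gives to Ldha. Ldhb (chr6:142490249-142507957, minus strand) had only 1 summit of its own, at -73 bp with 18.8, and 1 nearer Gys2 (8.95). Thus the promoter score was higher at Ldhb than at Ldha, and the best score of any summit was higher at Ldha. The upstream Ldha summit (plus strand, chr7:46839208-46839308) and the Ldhb promoter summit (minus strand, chr6:142507980-142508080) are shown as the strongest of each gene. The capitals in Ldhb mark the CCAAT box.
Ldha, -6546: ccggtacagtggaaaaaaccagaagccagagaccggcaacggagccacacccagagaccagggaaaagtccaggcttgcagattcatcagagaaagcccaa
Ldhb, -73: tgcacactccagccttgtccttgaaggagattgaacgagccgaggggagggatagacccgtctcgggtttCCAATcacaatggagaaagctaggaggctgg

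Pdk4, the kinase that shuts pyruvate out of oxidation when fat is burned (chr6:5483351-5496278, minus strand), had the strongest promoter summit of the 10 genes, at -193 bp with 64.5 and rank 226. All 11 of its summits were nearest its own start site. Upstream lay summits at -2634 bp (18.8), -11713 bp (23.8) and -13646 bp (37.55), the last being the strongest distal summit of the 10 genes. The 5 in the body scored 5.07 to 12.8, and the one at +2862 bp (8.12) lay wholly in a masked repeat, where reads can map to more than one place. Past the gene's end were summits at +14804 bp (14.0) and +25273 bp (7.58). The promoter summit (minus strand, chr6:5496421-5496521), the nearest upstream one (chr6:5498862-5498962) and the farthest (chr6:5509874-5509974) are shown. Of these bases, only those around -2634 bp held patterns, TGCCAA of NFI and the nuclear receptor element (as TGACCT), in capitals. TGCCAA lay within 50 bp of 6.0% of all summits.
Pdk4 promoter, -193: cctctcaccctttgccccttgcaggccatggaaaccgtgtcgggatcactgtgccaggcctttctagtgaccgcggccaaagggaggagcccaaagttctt
Pdk4 upstream, -2634: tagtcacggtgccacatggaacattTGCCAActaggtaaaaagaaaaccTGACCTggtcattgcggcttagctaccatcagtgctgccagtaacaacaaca
Pdk4 upstream, -13646: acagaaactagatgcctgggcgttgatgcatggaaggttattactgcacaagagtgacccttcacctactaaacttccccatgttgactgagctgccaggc

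Distal summits differed widely among the 10 genes. The median score of the 40 was 6.02, against 4.16 over the 21798 summits of the list farther than 1 kb from a start site. A score of at least 10 was reached by 13 of the 40 (32.5%), against 14.4%. Pdk4 held 10 of the 40 and 5 of the 13, and without it the median was 5.04 and 8 of 30 (26.7%) reached 10. The 4 distal summits of Slc2a4 and the 3 of Hk1 scored at most 4.16. The 13 came from 6 genes, and 9 of the 40 lay within 1 kb of another annotated start. By locus, the median gene of the 10 had 8 summits and the median of all genes was 2, with quartiles of 0 and 5.

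Short patterns were then counted within 100 bp of the summits on both strands. Those of the core promoter were the GC box (GGGCGG), the CCAAT box, spelled by its name, and the TATA box (TATAAA). The E-box is CACGTG. The hypoxia response core inside it is ACGTG. The others were the cAMP response element (TGACGTCA), nuclear receptor element (AGGTCA), estrogen-related receptor (TCAAGGTCA), C/EBP (TTGCNNCAA), NFI (TGCCAA), EBF (TCCCNNGGG), MEF2 (TATTTATA), FOXO (TGTTTAC), AP-1 (TGANTCA), NRF1 (GCGCATGCG) and ETS (CCGGAAG). For 7 of the 16 the share was higher at the 90 summits than in the list. CCAAT was found at 32.2% against 24.9%, ACGTG at 21.1% against 14.0% and AP-1 at 10% against 6.40%. With 50 bp on each side the count was 5 of 16, of which FOXO (1.11% against 0.730%) was lower with 100 bp. CCAAT (18.9% against 14.6%) and ACGTG (15.6% against 7.39%) were still higher, while AP-1 (3.33% against 3.43%), the nuclear receptor element (6.67% against 8.20%) and NFI (3.33% against 6.0%) were lower. The GC box was found at 11.1% against 20.7%, EBF at 4.44% against 9.93% and ETS at 2.22% against 5.38%. At the 54 own summits, CCAAT reached 38.9%, and ETS was absent. EBF was at 7.41% there, nearer its share in the list. The TATA box (3.70% against 3.29%) and FOXO (1.85% against 1.56%) were higher than in the list there, unlike at the 90. The cAMP response element, estrogen-related receptor, MEF2 and NRF1 patterns were absent from all 90, each being at most 1.03% in the list. A match describes letters near a summit and says nothing of a bound factor.

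**Figure D3:**
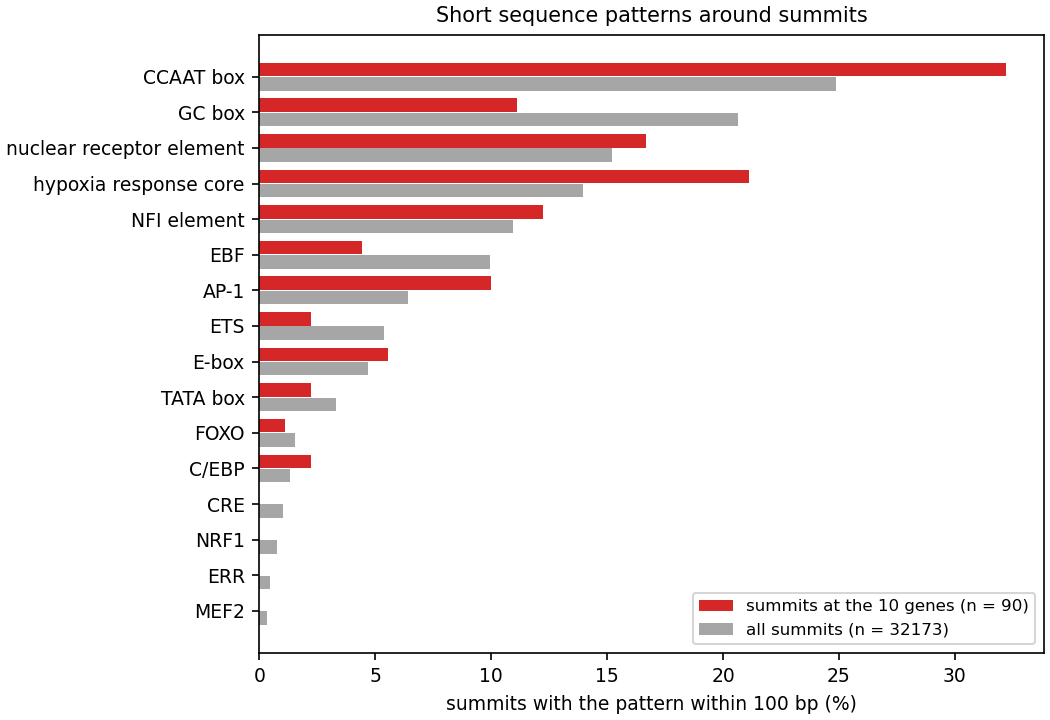
Percent of summits with each of 16 short patterns within 100 bp (x axis) for the 90 summits at the 10 genes and all 32173 summits of the list. CCAAT and ACGTG stand higher at the genes, the GC box and ETS lower.

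Other genes of glucose use were listed to place the 10 in their pathway. Of 62, 40 (64.5%) had a promoter summit, with a median score of 17.4, and 34 had a score of at least 10. Over all genes 45.2% had a promoter summit and 23.5% had one with a score of at least 10, and GC content was not matched here. Among genes at or above the lowest promoter GC content of the 10, 65.6% had a promoter summit, near the 64.5%. The counts by role below are of few genes and were not tested. The pyruvate dehydrogenase complex with its kinases, which turn it off, and its phosphatases, which turn it on, had summits at 9 of 10 genes. Pdhb, its E1 beta subunit, scored 94.9, and Pdk1 and Pdk2, relatives of Pdk4, scored 30.1 and 33.3, with no promoter summit at Pdk3. Pdha1, the E1 alpha subunit, scored 33.3, and Pdhx, an E3-binding subunit, had a summit of 58.6 that lay nearer Apip. Of the AIF family and enzymes that reoxidise cytosolic NADH, 5 of 6 had one, with Mdh1 at 27.1 and Aifm1 at 10.4, and none at Aifm3. Nearest to the Aifm2 score of 30.1 were Pdk1, Mdh1 and, tied, Pdha1 and Pdk2. In glycolysis the count was 13 of 22, led by Aldoa (59.5), Gapdh (46.9) and Eno1 (41.9). The genes without a promoter summit included liver, muscle, brain or testis forms such as Pklr, Eno3, Eno2 and Pgk2. Of the other phosphofructokinases, Pfkp scored 7.05, and Pfkm had a summit of 10.7 that lay nearer the start site of Senp1. Of the genes of lactate and pyruvate handling, which are carriers, the carrier partner Bsg and 2 other lactate dehydrogenases, 5 of 8 had summits, including the mitochondrial pyruvate carrier genes Mpc2 (91.6) and Mpc1 (50.04). Of the 2 lactate dehydrogenases, Ldhd scored 7.58, and testis Ldhc had none. Of the glucose transport genes other than Slc2a1 and Slc2a4, 3 of 8 had one, Slc2a8 (12.2), Slc2a12 (9.79) and Tbc1d4 (12.2), and Slc2a2, Slc2a3, Slc2a5 and Slc2a10 had none. The hexokinase relatives Hk3 and Hkdc1 had none. Regulators had them at 4 of 5, with 64.4 at Txnip, which restrains glucose uptake, and none at Mlxipl (ChREBP).

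**Figure D4:**
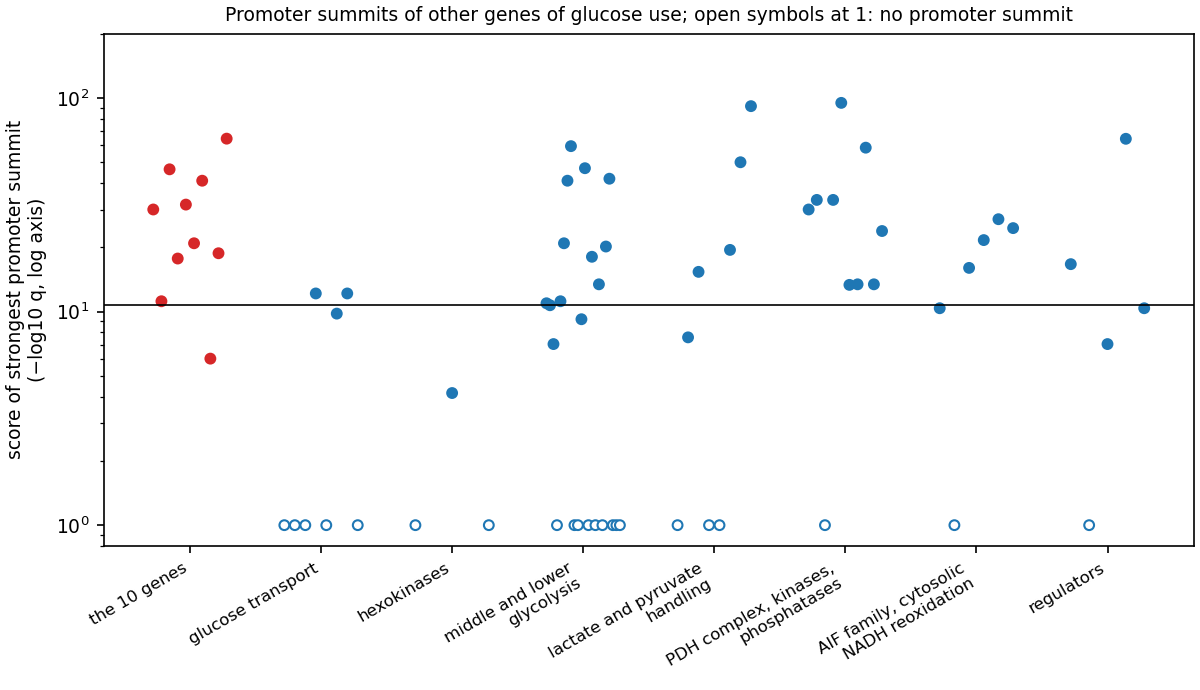
Score of the strongest promoter summit (−log10 q, log axis) of 62 other genes of glucose use by role, with open symbols at 1 for genes without a promoter summit. The first column holds the 10 genes and the line is the all-gene median of 10.7. The highest are Pdhb at 94.9 and Mpc2 at 91.6, and 5 of 8 genes of glucose transport have none.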

How the data were processed

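ATAC-seq libraries of BAT nuclei came from 2 WT and 2 Dot1L-BKO mice. The RNA-seq libraries were not used here. According to the methods, the authors aligned reads with BWA to mm10 in Partek Flow, and MACS2 in ATAC mode then gave the peaks, past a cutoff on the q-value and on fold enrichment. Peaks of each sample were then quantified over a union of regions, and these values were not used here. The submitters' processing notes give MACS2 as version 2.1.1 and also name CASAVA, bcl2fastq 2.2 and cutadapt 1.2.1. The deposited list gives each summit's position and the −log10 of its q-value, and how libraries entered this list is not given in the sources used here. The same holds for read shifting and for multi-mapped and mitochondrial reads. A score grows with depth, which is unknown, and is shared by up to 1942 summits (2606 distinct scores), so ranks are tied.

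Summits were placed on the RefSeq annotation of the same build (21000 genes, 25999 start sites, chromosomes 1 to 19, X and Y) and sequences were read from that genome. No test was made, since the list has no value per library. The genes, pathway and marker lists, patterns and windows were chosen with earlier results of these data known. The rule for named genes took the 10, the 5 pathway genes with the highest promoter score, listed paralogs of the 10 and the 3 pathway genes nearest Aifm2 in score, and, of summits, the strongest promoter and distal one of each gene. Some genes that this rule takes are not reported here. Other genes and summits named were chosen after their values were seen. Alternatives changed the score minimum (5, 10), transcripts, merging (500 bp), promoter window (500 bp, 5 kb) locus window (10 kb, 100 kb) and pattern window (50 bp). Leaving out Pdk4 was added after seeing the data. The counting was tested on simulated data. Python 3.11.15, numpy 2.4.6, pandas 2.3.3, pysam 0.24.0 and matplotlib 3.10.9 were used.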

Additional observations from a re-analysis of the deposited data

How the results depend on the processing

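Counts moved as the settings themselves add or drop summits. The 90 summits at the 10 genes became 55 with a score of at least 5, 31 with a score of at least 10, 54 with a window of 10 kb, 136 with 100 kb, 41 with the gene body only and 54 with summits nearest the gene's own start site. The median promoter score of 25.5 became 30.1 with a score of at least 10, 20.9 with a promoter window of 500 bp and 27.3 with 5 kb. The 10 genes with a promoter summit became 9 with a score of at least 10 (without Ldha) and 9 with the 500 bp window (without Slc2a4). Of the promoter scores by gene, Ldha went from 6.02 to 11.9 and Pfkl from 20.9 to 24.6 with the 5 kb window. Patterns more frequent at the 10 genes went from 7 to 5 of 16 within 50 bp, with AP-1, the nuclear receptor element and NFI lost and FOXO gained. Without Pdk4, which was left out after the data were seen, the median score of distal summits went from 6.02 to 5.04 and those reaching a score of 10 from 13 to 8. No paired analysis was possible because a summit list holds no value per library, and no replicate could be left out of it. Depth per library is unknown, which limits any reading of a missing summit.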
